A study of Arabidopsis thaliana with 18 samples.

Results

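The genes of starch synthesis and starch breakdown were examined in aerial tissue of Arabidopsis thaliana at 2 times of day. They were 42 of the 33331 genes listed in the authors' expression table, chosen by function and gene identifier. Of these, 17 serve starch synthesis (starch synthases, ADP-glucose pyrophosphorylase, branching enzymes, isoamylases for synthesis, PTST1, PGM1 and PGI1). The other 25 were grouped as starch breakdown (debranching enzymes, amylases, glucan dikinases and phosphatases, glucanotransferases, phosphorylases and the maltose exporter). This list follows gene families, and some of its members do not act on starch in the plastid. The series followed the clock-controlled RNA-binding protein AtGRP7 by sequencing polyadenylated RNA from 18 samples of 3 lines. Plants had been kept in light-dark cycles and then in continuous light (LL). The groups used here were 3 wild type (wt) Col-2 samples harvested after 36 h in LL (LL36, subjective dusk) and 3 wt samples harvested after 24 h in LL (LL24, subjective dawn). They carried no transgene. Each sample was a bulk of several plants, and the replicates are named as biological replicates. The libraries of AtGRP7-ox plants and of the grp7-1 8i line were not analysed here.

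Leaves store part of the carbon fixed in the day as starch in their chloroplasts and break it down at night to feed sucrose synthesis. In synthesis, plastid PGI1 and PGM1 turn fructose 6-phosphate into glucose 1-phosphate, ADP-glucose pyrophosphorylase (AGPase) makes ADP-glucose, and starch synthases, branching enzymes and isoamylase build the glucan. In breakdown, the dikinases GWD1 and PWD phosphorylate the granule surface, phosphatases take the phosphate off again, and debranching enzymes and beta-amylases release maltose. Maltose leaves the chloroplast through MEX1 and is metabolised in the cytosol by DPE2 and PHS2. Several of these transcripts are known to cycle over the day in leaves.

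Levels are given as TPM, in which the share of a library that falls to a transcript is corrected for length, so levels of different genes can be set side by side. TPM hold no sequencing depth. The libraries summed to 990489 to 992864 TPM and held 18523 to 18935 genes above 1 TPM. Time-of-day labels were checked with clock genes in every library. The evening gene TOC1 had 59.7 to 61.6 TPM at LL36 and 6.45 to 7.08 TPM at LL24, and GI had 9.10 to 10.7 TPM at LL36 and 1.18 to 1.66 TPM at LL24. The morning genes CCA1 and LHY were at 2.34 to 4.74 TPM at LL36 and at 162 to 205 TPM at LL24. AtGRP7 had 4458 to 4855 TPM at LL36 and 100.2 to 132 TPM at LL24, and AtGRP8 had 491 to 538 TPM at LL36 and 99.5 to 128 TPM at LL24. Green leaf markers (RBCS1A, LHCB1.1, CA1 and RCA) summed to 23701 to 25886 TPM at LL36 and to 40022 to 41843 TPM at LL24, and for 4 of 4 the limma adjusted p of the decrease at LL36 lay below 0.05. RBCS1A, the most abundant of them, kept this call in 13 of 15 alternatives. It was not called with quantile normalization, where its log2 change was -1.3e-15. Quantile normalization gives a gene of the same rank in every library the same value, so it cannot decide on RBCS1A. Phloem markers summed to 60.8 to 72.7 TPM at LL36 and 61.3 to 93.1 TPM at LL24, guard cell markers to 46.1 to 48.1 TPM at LL36 and 40.2 to 54.1 TPM at LL24, and these ranges overlapped. Of the 10 root, flower and seed storage markers, 9 had means below 1 TPM at both time points. The part of the lower green leaf markers in the results given here was not tested. In bulk tissue, fewer cells of a type and less RNA per cell cannot be told apart.

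To ask how the starch pathway stood at subjective dusk against subjective dawn, each gene was compared between LL36 and LL24 on log2(TPM + 0.5) with limma. The LL36 plants had also been in continuous light for longer (36 h, against 24 h at LL24). Time of day and time in continuous light therefore cannot be told apart here. A gene was called where its p, adjusted over all tested genes, lay below 0.05. The median of all tested genes was 0.21 higher at LL36 on this scale. Changes of single genes are therefore given relative to this shift, while the adjusted p refers to the change itself. Fold values are ratios of mean TPM. Neither fold values nor single-gene values written as a log2 change are taken relative to the shift. All 42 members passed the filter on low values (a mean above 1 TPM at either time point) and were above 0 TPM in every library. A total of 30 members were called, where 52.4% of 19303 tested genes were called. There were 19 members called higher at LL36 (45.2%, against 41.2% of all tested genes) and 11 called lower (26.2%, against 11.2%). Across the 3 scalings used (TPM as deposited, median-of-ratios and quantile normalization), 16 members were called higher each time (38.1%, against 15.9% of genes) and 11 lower each time (26.2%, against 11.1%). With median-of-ratios scaling, 16 members were called higher and 15 lower, where the share called over all tested genes was 34.2% (16% higher and 18.2% lower). Under quantile normalization, 16 members were called higher and 14 lower, where that share was 34.4% (18.7% higher and 15.7% lower). The members' median change was -0.02 and their mean change 0.09, with changes that ran from -5.48 to 2.93.

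Changes beyond 1 on the log2 scale were found in both directions. Called changes of more than 1 above the shift were found for 10 members (23.8%, against 2.36% of all tested genes), namely SS4, SBE2.1, ISA3, AMY3, GWD1, PWD, DPE1, DPE2, PHS1 and PHS2. Called changes of more than 1 below it were found for 6 members (14.3%, against 4.46%), namely GBSS1, SS2, APL3, BAM1, BAM9 and AMY2. The LL36 and LL24 libraries did not overlap for 32 members (76.2%, against 63.8% of genes). Members were also more abundant than most genes, with medians of 32.5 TPM at LL36 and 25.8 TPM at LL24 where all tested genes had 12.7 TPM at LL36 and 11.0 TPM at LL24.

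**Figure D1:**
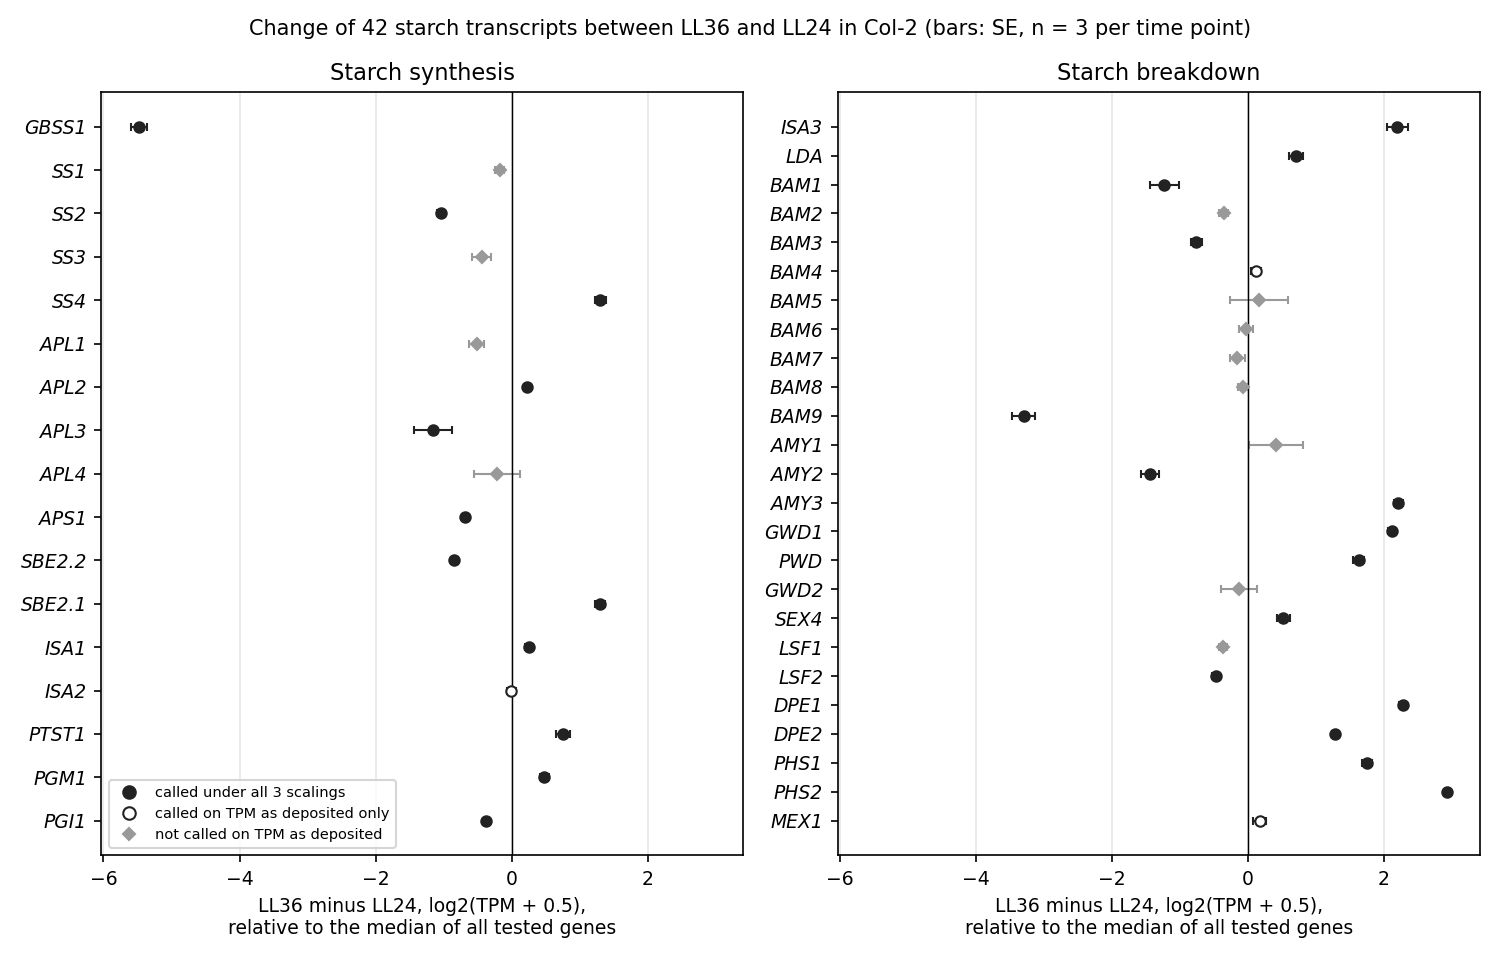
Change of each of the 42 starch transcripts between LL36 and LL24 in wt (x axis, log2(TPM + 0.5), LL36 minus LL24, relative to the median of all tested genes; points are limma estimates and bars their SE, n = 3 libraries per time point). Synthesis genes are on the left and breakdown genes on the right. GBSS1 lies farthest to the left at -5.48 and PHS2 farthest to the right at 2.93.

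At the entry of the pathway, PGM1 and PGI1, which hold consecutive steps of hexose phosphate supply, moved apart. PGM1 (AT5G51820, plastid phosphoglucomutase) had 128, 144 and 135 TPM at LL36, against 85.4, 88.2 and 77.8 TPM at LL24. Every LL36 library was higher, with a change of 0.48 ± 0.07 (SE, limma adjusted p = 0.00048). PGI1 (AT4G24620, plastid phosphoglucose isomerase) had 60.9, 66.7 and 64.3 TPM at LL36, against 69.3, 72.7 and 72.0 TPM at LL24. All its LL36 libraries lay below all LL24 libraries by a narrow margin, with a change of -0.37 ± 0.05 and an adjusted p of 0.048. That call was lost when any 1 library was left out (adjusted p between 0.051 and 0.15).

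AGPase makes ADP-glucose, the substrate of the starch synthases, from a small subunit (APS1) and large subunits (APL1 to APL4). APS1 (AT5G48300) was the most abundant of the 42 transcripts at both time points. It had 256, 278 and 271 TPM at LL36, against 378, 377 and 358 TPM at LL24. The groups did not overlap, and the change was -0.68 ± 0.05 (adjusted p = 0.00068). The summed TPM of the 5 subunits was 487 ± 11.9 at LL36, against 645 ± 0.877 at LL24 (SD, n = 3 each).

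The large subunits did not follow 1 pattern. APL3 (AT4G39210), a subunit known mainly from sink tissues and sugar-fed leaves, had 24.6, 16.0 and 19.4 TPM at LL36, against 59.0, 29.9 and 31.8 TPM at LL24. All LL24 libraries lay above all LL36 libraries, but LL24 replicate 1 was far above its own group. Its change was -1.16 ± 0.28 (adjusted p = 0.029), and the call was lost without LL36 replicate 2 (adjusted p = 0.094) or LL36 replicate 3 (adjusted p = 0.073). APL2 (AT1G27680) was higher at LL36 with 18.4 ± 0.474 TPM, against 13.4 ± 0.239 TPM at LL24. APL1 (AT5G19220), the main leaf subunit, had 166 ± 7.93 TPM at LL36 and 206 ± 29.6 TPM at LL24 and was not called (adjusted p = 0.0595). It was called lower without LL24 replicate 1 (adjusted p = 0.0047), with median-of-ratios scaling (adjusted p = 0.012) and with quantile normalization (adjusted p = 0.039). APL4 (AT2G21590) had 14.0 ± 3.45 TPM at LL36 and 14.9 ± 7.42 TPM at LL24 and was not called. The ratio of the small subunit to the summed large subunits was 1.23 ± 0.048 at LL36 and 1.36 ± 0.087 at LL24, with overlapping libraries.

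Among the starch synthases, which add glucose to growing chains, GBSS1 changed far more than the others. GBSS1 (AT1G32900, the granule-bound synthase that makes amylose) had 5.76, 4.09 and 5.44 TPM at LL36, against 212, 211 and 218 TPM at LL24. It was 42-fold lower at LL36, and its change of -5.48 ± 0.12 (adjusted p = 9.4e-07) was the lowest of the 42 members. Among them it was rank 41 by mean TPM at LL36 and rank 3 at LL24. PTST1 (AT5G39790), which carries GBSS to the starch granule, went the other way. PTST1 had 23.7, 23.8 and 30.2 TPM at LL36, against 12.5, 13.3 and 12.9 TPM at LL24, a change of 0.76 ± 0.10 (adjusted p = 0.00054). Per PTST1 transcript there were 0.198 ± 0.039 GBSS1 transcripts at LL36 and 16.6 ± 0.579 at LL24.

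The soluble synthases were split. SS4 (AT4G18240), needed to start new granules, had 70.4, 79.3 and 69.7 TPM at LL36, against 23.0, 26.5 and 26.3 TPM at LL24. It was 2.89-fold higher at LL36, with a change of 1.30 ± 0.08 (adjusted p = 3.1e-05). SS2 (AT3G01180), which makes chains of intermediate length, had 14.1, 15.3 and 15.2 TPM at LL36, against 26.4, 26.9 and 27.2 TPM at LL24. Its change was -1.04 ± 0.06 (adjusted p = 7.9e-05), and neither gene's groups overlapped. SS1 (AT5G24300) had 66.9 ± 4.14 TPM at LL36 and 65.1 ± 3.00 TPM at LL24 and was not called. SS3 (AT1G11720) had 23.3 ± 1.39 TPM at LL36 and 27.6 ± 5.03 TPM at LL24 and was not called, but it was called lower without LL24 replicate 1 (adjusted p = 0.0076) and with median-of-ratios scaling (adjusted p = 0.047). Of its 100-base windows, 3.72% also lie in an antisense gene, and the library kit does not mark strand.

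As shares of all starch synthase TPM, GBSS1 made up 2.80% ± 0.612 at LL36 and 59.7% ± 1.52 at LL24. SS4 made up 39.9% ± 1.07 at LL36 and 7.04% ± 0.349 at LL24. The soluble synthases alone summed to 178 ± 10.2 TPM at LL36 and to 145 ± 10.2 TPM at LL24. The granule-bound and soluble classes thus stood in opposite order of abundance at the 2 time points.

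Branching enzymes SBE2.1 and SBE2.2, close homologues that introduce the branch points of amylopectin, changed in opposite directions. SBE2.1 (AT2G36390) had 73.5, 71.0 and 74.1 TPM at LL36, against 22.6, 26.5 and 27.0 TPM at LL24, a change of 1.30 ± 0.08 (adjusted p = 2.5e-05). SBE2.2 (AT5G03650) had 40.0, 43.3 and 41.4 TPM at LL36, against 65.3, 63.7 and 64.7 TPM at LL24, a change of -0.84 ± 0.05 (adjusted p = 0.00018). Neither gene's groups overlapped. SBE2.1 made up 63.7% ± 1.38 of the pair at LL36 and 28.2% ± 2.11 at LL24, while the sum of the pair was 114 ± 1.01 TPM at LL36 and 89.9 ± 1.89 TPM at LL24.

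The isoamylase that trims amylopectin in synthesis consists of ISA1 and its non-catalytic partner ISA2. ISA1 (AT2G39930) was higher at LL36 with 25.2 ± 0.730 TPM, against 18.1 ± 0.990 TPM at LL24 (change 0.25 ± 0.06, adjusted p = 0.0013). Part of it, 7.72% of its windows, lies opposite an antisense gene. ISA2 (AT1G03310) had 30.5 ± 1.41 TPM at LL36 and 26.3 ± 1.92 TPM at LL24. It was called (adjusted p = 0.046), but its log2 change of 0.21 was the size of the shift of all genes, and the call was kept in 5 of 16 alternatives.

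**Figure D2:**
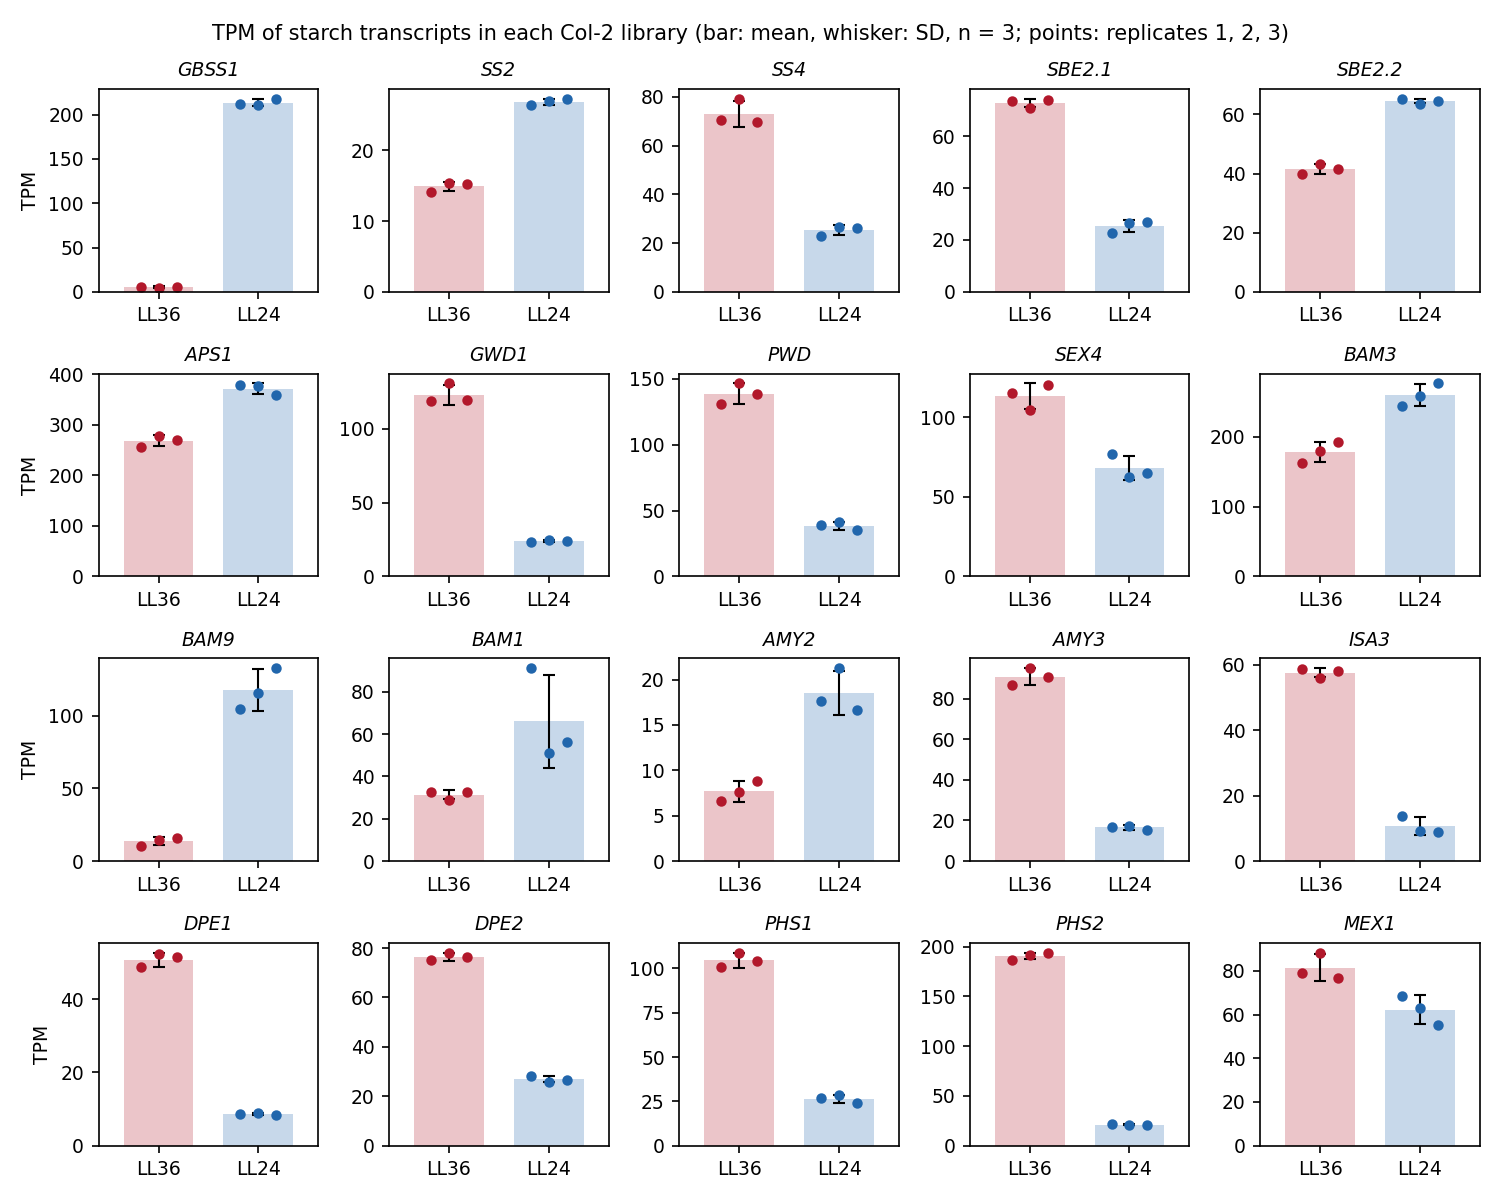
TPM of 20 starch transcripts in each wt library (y axis, TPM from 0, a scale per panel; points are replicates 1, 2 and 3, bars the mean and whiskers the SD, n = 3; LL36 red, LL24 blue). GBSS1 stood at 4.09 to 5.76 TPM at LL36 and at 211 to 218 TPM at LL24, and BAM1 shows LL24 replicate 1 at 91.3 TPM, above the other LL24 libraries.

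Turning to breakdown, the glucan dikinases that open the granule surface rose together. GWD1 (AT1G10760), which phosphorylates amylopectin as the entry step, had 119, 131 and 120 TPM at LL36, against 23.3, 24.7 and 23.8 TPM at LL24. It was 5.14-fold higher at LL36 (change 2.12 ± 0.06, adjusted p = 1.4e-06). PWD (AT5G26570), which acts on glucan already phosphorylated by GWD1, had 131, 147 and 139 TPM at LL36, against 39.3, 41.0 and 34.9 TPM at LL24 (change 1.63 ± 0.08, adjusted p = 1.1e-05). The groups lay far apart for both. GWD2 (AT4G24450), a dikinase outside the plastid, had 4.57 ± 0.260 TPM at LL36 and 4.54 ± 1.73 TPM at LL24 and was not called. LL24 replicate 1 stood apart for GWD2 with 2.54 TPM, and without it GWD2 was called lower with a log2 change of -0.25 (adjusted p = 0.041).

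Of the 3 phosphatases of the family that takes phosphate off the glucan, 1 was called higher at LL36 (33.3%, against 41.2% of all tested genes). Another 1 was called lower (33.3%, against 11.2%). SEX4 (AT3G52180) had 115, 105 and 120 TPM at LL36, against 76.9, 62.6 and 64.8 TPM at LL24. Its groups did not overlap (change 0.52 ± 0.09, adjusted p = 0.0013). LSF2 (AT3G10940) was lower at LL36 with 49.3 ± 2.98 TPM, against 59.0 ± 1.88 TPM at LL24 (change -0.47 ± 0.06, adjusted p = 0.014). LSF1 (AT3G01510), a family member with a structural rather than a catalytic role, had 14.3 ± 0.811 TPM at LL36 and 15.9 ± 0.155 TPM at LL24. It was not called as deposited, but was called lower with median-of-ratios scaling (adjusted p = 0.0051) and with quantile normalization (adjusted p = 0.0075). Its value is uncertain, since 9.83% of its windows are shared with transcripts of the neighbouring gene CA1, a green leaf marker with 2504 TPM at LL36 and 3254 TPM at LL24. Per GWD1 transcript there were 0.925 ± 0.111 SEX4 transcripts at LL36 and 2.85 ± 0.401 at LL24, and 1.13 ± 0.029 PWD transcripts at LL36 and 1.6 ± 0.121 at LL24.

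Debranching enzymes for breakdown were both higher at LL36. ISA3 (AT4G09020), the isoamylase that acts on phosphorylated granules, had 58.6, 55.9 and 58.1 TPM at LL36, against 13.7, 9.14 and 8.97 TPM at LL24. The groups did not overlap, although LL24 replicate 1 stood above the other LL24 libraries (change 2.2 ± 0.16, adjusted p = 7.2e-05). LDA (AT5G04360, limit dextrinase) had 24.6, 28.6 and 26.0 TPM at LL36, against 12.0, 14.2 and 14.9 TPM at LL24 (change 0.71 ± 0.10, adjusted p = 0.00063).

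Of the 9 beta-amylases, 3 were called lower at LL36 (33.3%, against 11.2% of all tested genes) and 1 was called higher (11.1%, against 41.2%). BAM9 (AT5G18670), which lacks catalytic activity, had 10.4, 14.5 and 15.7 TPM at LL36, against 105, 115 and 133 TPM at LL24. It was 8.69-fold lower at LL36 (change -3.30 ± 0.16, adjusted p = 2.9e-05), and among the members it was rank 33 at LL36 and rank 5 at LL24. BAM3 (AT4G17090), the main beta-amylase of leaf starch breakdown at night, had 163, 180 and 192 TPM at LL36, against 244, 258 and 276 TPM at LL24. All LL36 libraries lay below all LL24 libraries (change -0.76 ± 0.08, adjusted p = 0.0019). Of its windows, 20.9% lie in an antisense gene without a value of its own in the table, so reads of that gene could not be told from those of BAM3.

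BAM1 (AT3G23920), a plastid beta-amylase linked to daytime breakdown and stress, had 32.5, 29.0 and 32.7 TPM at LL36, against 91.3, 50.9 and 56.1 TPM at LL24. LL24 replicate 1 was the highest library, yet the groups did not overlap and the call was kept in 16 of 16 alternatives (change -1.23 ± 0.21, adjusted p = 0.0081). Without LL24 replicate 1 the log2 change of BAM1 was -0.76, against -1.02 with it. BAM4 (AT5G55700), a non-catalytic regulator of breakdown, had 9.38 ± 0.436 TPM at LL36 and 7.32 ± 0.496 TPM at LL24 (change 0.13 ± 0.07, adjusted p = 0.0094). This call was lost with median-of-ratios scaling (adjusted p = 0.22) and quantile normalization (adjusted p = 0.24).

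The remaining 5 beta-amylases were not called. BAM2 (AT4G00490) had 33.6 ± 1.72 TPM at LL36 and 37.1 ± 1.95 TPM at LL24, and it was called lower under median-of-ratios scaling (adjusted p = 0.0064) and quantile normalization (adjusted p = 0.014). BAM6 (AT2G32290) had 12.2 ± 1.48 TPM at LL36 and 10.6 ± 0.798 TPM at LL24, and it was called higher without LL36 replicate 3 (adjusted p = 0.045). Of the BAM6 windows, 8.61% lie in an antisense gene, AT2G32280, with means of 11.0 TPM at LL36 and 4.61 TPM at LL24. BAM7 (AT2G45880) and BAM8 (AT5G45300), nuclear proteins that act on transcription, had 5.46 ± 0.125 and 8.46 ± 0.614 TPM at LL36, against 5.25 ± 0.748 and 7.60 ± 0.359 TPM at LL24. BAM5 (AT4G15210), found outside the plastid in the phloem, had 11.4, 9.44 and 13.1 TPM at LL36, against 18.04, 6.69 and 5.07 TPM at LL24. The LL24 libraries of BAM5 spanned the LL36 range, and without LL24 replicate 1 it was called higher at LL36 (adjusted p = 0.0095). Beta-amylase transcripts summed to 303 ± 18.2 TPM at LL36 and to 521 ± 19.7 TPM at LL24, and the share of BAM9 in them was 4.44% ± 0.674 at LL36 and 22.5% ± 2.31 at LL24.

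Among the alpha-amylases, which cut inside glucan chains, the plastid and cytosolic forms changed in opposite directions. AMY3 (AT1G69830), the plastid form, had 86.8, 95.1 and 90.5 TPM at LL36, against 16.8, 17.3 and 15.4 TPM at LL24 (change 2.21 ± 0.07, adjusted p = 1.9e-06). AMY2 (AT1G76130), the cytosolic form, had 6.59, 7.62 and 8.81 TPM at LL36, against 17.7, 21.3 and 16.7 TPM at LL24 (change -1.43 ± 0.13, adjusted p = 0.00058). Neither pair of groups overlapped. AMY1 (AT4G25000), a secreted form, had 2.96 to 6.86 TPM at LL36 and 1.82 to 4.73 TPM at LL24 and was not called. AMY3 took 87.3% ± 2.42 of alpha-amylase TPM at LL36 and 43.1% ± 2.22 at LL24, and AMY2 took 7.37% ± 0.878 at LL36 and 48.2% ± 2.79 at LL24.

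**Figure D3:**
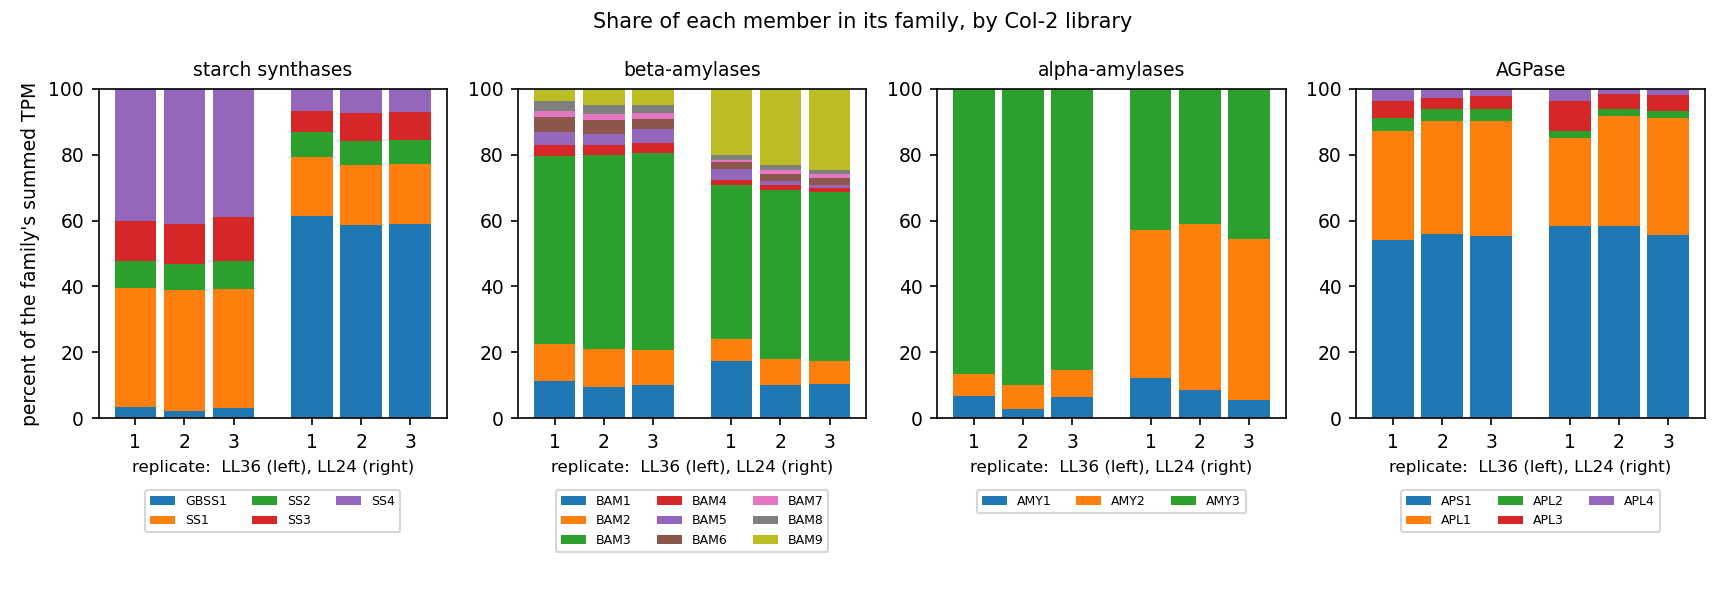
Share of each member in the summed TPM of its family (y axis, percent) in each wt library (x axis, replicates 1 to 3 of LL36 on the left and of LL24 on the right of each panel). GBSS1 fills 2.80% of starch synthase TPM at LL36 and 59.7% at LL24, AMY3 fills 87.3% of alpha-amylase TPM at LL36 and 43.1% at LL24, and APS1 keeps a similar share of AGPase at 55.1% at LL36 and 57.5% at LL24.

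Both glucanotransferases, which rework the released sugars, were higher at LL36. DPE1 (AT5G64860), the plastid glucanotransferase that recycles maltotriose, had 48.7, 52.4 and 51.5 TPM at LL36, against 8.72, 8.87 and 8.25 TPM at LL24 (change 2.28 ± 0.06, adjusted p = 1.0e-06). DPE2 (AT2G40840), its cytosolic counterpart for maltose, had 75.0, 78.2 and 76.5 TPM at LL36, against 28.1, 25.7 and 26.7 TPM at LL24 (change 1.28 ± 0.05, adjusted p = 5.7e-06). Neither gene's groups overlapped, and the ratio of DPE2 to DPE1 was 1.51 ± 0.029 at LL36 and 3.12 ± 0.189 at LL24.

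Both glucan phosphorylases, which release glucose 1-phosphate, were higher at LL36 as well. PHS2 (AT3G46970), the cytosolic form, had 187, 192 and 193 TPM at LL36, against 21.7, 21.0 and 20.7 TPM at LL24. It was 9.03-fold higher at LL36, the highest change of the 42 members (2.93 ± 0.05, adjusted p = 4.5e-07), and was rank 2 among them at LL36 and rank 25 at LL24. PHS1 (AT3G29320), the plastid form, had 101, 109 and 104 TPM at LL36, against 27.1, 28.5 and 23.9 TPM at LL24 (change 1.75 ± 0.08, adjusted p = 8.1e-06). PHS2 was thus the more abundant form at LL36, with 1.82 ± 0.056 PHS2 per PHS1 transcript, and the less abundant at LL24, with 0.801 ± 0.064. MEX1 (AT5G17520), the maltose exporter between these steps, had 81.5 ± 6.09 TPM at LL36 and 62.3 ± 6.78 TPM at LL24 (change 0.18 ± 0.10, adjusted p = 0.015). Its call was lost with median-of-ratios scaling (adjusted p = 0.20), with quantile normalization (adjusted p = 0.085) and without LL36 replicate 2 (adjusted p = 0.052). Of its windows, 38.9% are shared with a neighbouring gene on the same strand that was itself below 1 TPM.

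Synthesis was then set against breakdown, with counts and sums only. The breakdown list includes BAM9, which lacks catalytic activity, and the nuclear proteins BAM7 and BAM8. It also includes BAM5, AMY1, AMY2 and GWD2, which are found outside the plastid. Of the 17 synthesis genes, 7 were called higher at LL36 (41.2%, the same share as the 41.2% of all tested genes) and 6 lower (35.3%, against 11.2%), with a median change of -0.22. Of the 25 breakdown genes, 12 were called higher (48.0%, near the 41.2% of all tested genes) and 5 lower (20.0%, against 11.2%), with a median change of 0.16. The medians of the 2 lists differed by 0.38 on the log2 scale. The synthesis median was the value of APL4 (SE 0.34) and the breakdown median that of BAM5 (SE 0.43). Neither gene was called and both varied widely within their groups, so the difference of 0.38 is not firm. Within a library, the gap between the median levels of the lists varied among replicates. The variances of this gap at LL36 and at LL24 were added, and the square root of their sum was 0.19. It refers to median levels and not to median changes, so it does not measure the spread of 0.38. Under each of the scalings, 6 synthesis genes were called higher (35.3%, against 15.9% of genes) and 6 lower (35.3%, against 11.1%). For breakdown genes these counts were 10 higher (40.0%, against 15.9%) and 5 lower (20.0%, against 11.1%).

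In summed TPM, the order of both sides differed between the time points. Synthesis summed to 1066 ± 33.3 TPM at LL36, against 1306 ± 13.0 TPM at LL24. Breakdown summed to 1439 ± 39.6 TPM at LL36, against 939 ± 18.2 TPM at LL24. BAM9, which lacks catalytic activity, gave 13.5 TPM of this sum at LL36 and 118 TPM at LL24. The ratio of breakdown to synthesis was 1.35 ± 0.014 at LL36 and 0.719 ± 0.021 at LL24, so breakdown transcripts were the larger sum in every LL36 library and the smaller sum in every LL24 library. GBSS1 carried most of the difference on the synthesis side. Without it, synthesis summed to 1061 ± 34.2 TPM at LL36 and 1092 ± 12.1 TPM at LL24, the libraries overlapped, and the ratio of breakdown to synthesis was 1.36 ± 0.015 at LL36 and 0.860 ± 0.026 at LL24. All 42 transcripts together made up 0.253% ± 0.0072 of the library at LL36 and 0.226% ± 0.00064 at LL24. These sums and shares are not taken relative to the shift, by which the median of all tested genes was 0.21 higher at LL36. They therefore do not show that the pathway as a whole rose more than other genes.

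**Figure D4:**
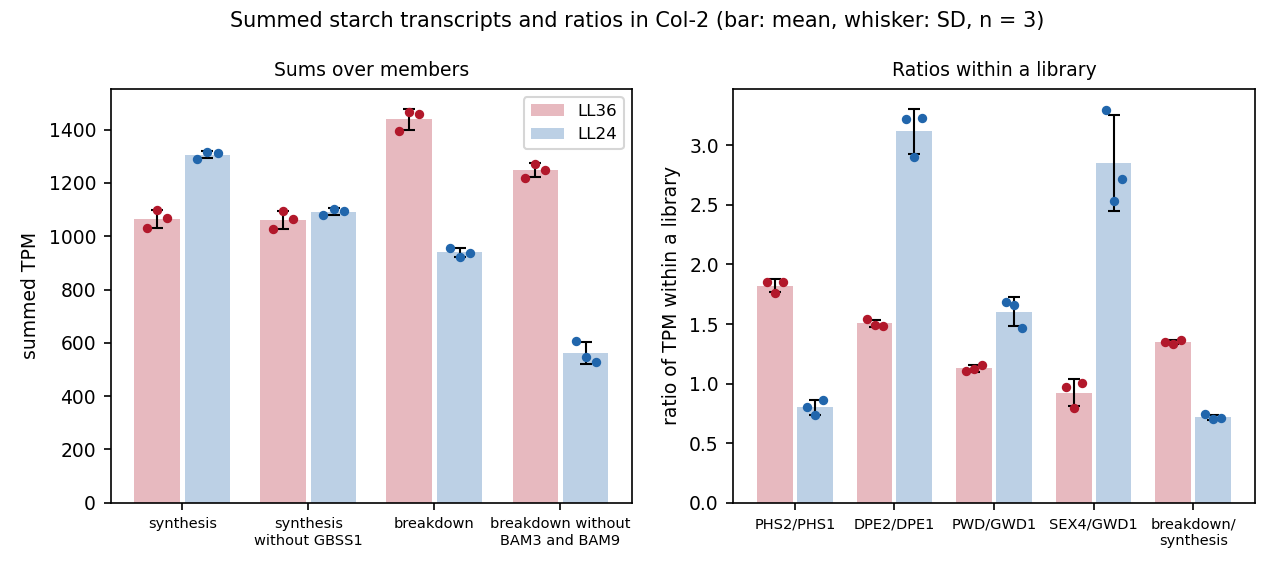
Left, summed TPM of synthesis and breakdown genes per wt library (y axis, TPM from 0). Right, ratios of TPM within a library (y axis, no unit, from 0). Points are libraries, bars the mean and whiskers the SD (n = 3; LL36 red, LL24 blue). Breakdown over synthesis was 1.35 at LL36 and 0.719 at LL24, and without GBSS1 the synthesis sums of LL36 and LL24 overlapped.

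LL24 replicate 1 stood apart for some members. It exceeded 1.5 times the mean of the other LL24 replicates for 6 members (14.3%, against 4.12% of all tested genes). These were BAM5 (3.07 times), APL4 (2.2 times), APL3 (1.91 times), AMY1 (1.75 times), BAM1 (1.71 times) and ISA3 (1.52 times). In LL36 replicate 1 the same ratio did not pass 1.5 for any member. There it was highest for APL4 (1.43), AMY1 (1.41) and APL3 (1.39), which are among the genes just named. For BAM5, ISA3 and BAM1 it was 1.01, 1.03 and 1.05. Over both time points the median SD of a member within its group was 0.10 on the log2 scale, against 0.11 for all tested genes. With replicate 1 of both time points left out, 19 members were called higher (45.2%, against 29.4% of all tested genes in that fit) and 12 lower (28.6%, against 9.48%).

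**Figure D5:**
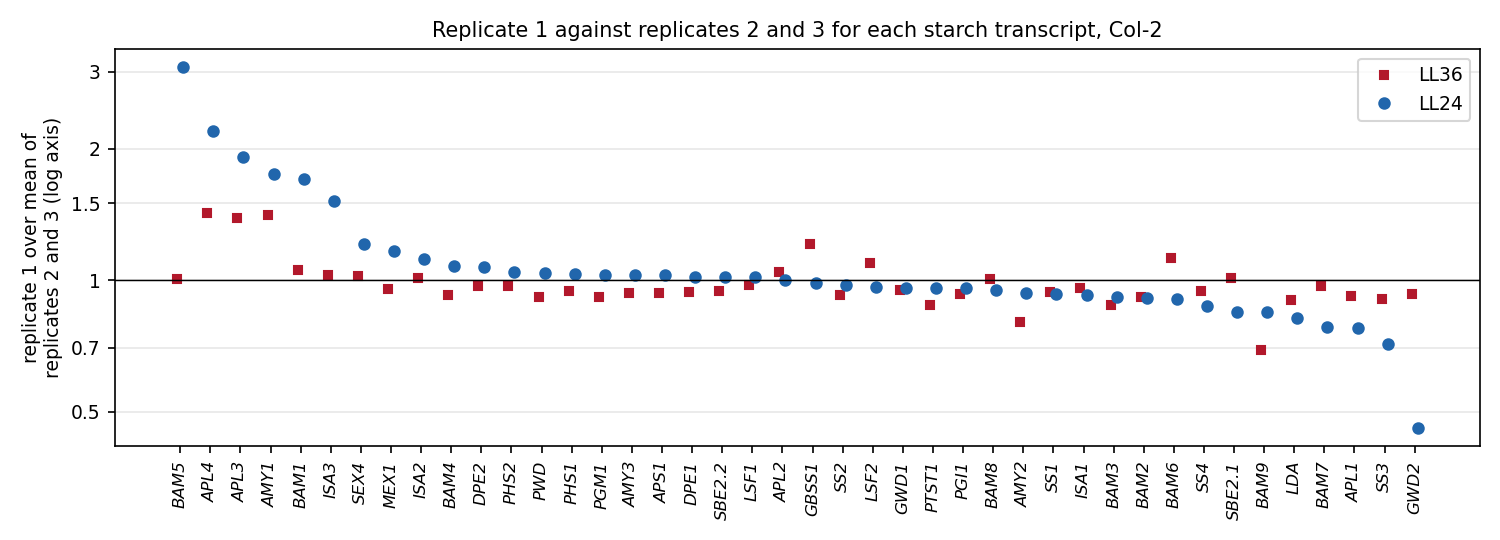
TPM in replicate 1 divided by the mean of replicates 2 and 3 (y axis, log axis, no unit) for each of the 42 starch transcripts (x axis, sorted by the LL24 ratio), at LL36 (red squares) and LL24 (blue circles). BAM5 reached 3.07 at LL24, and most members lay near 1 at both time points.

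Finally, 19 other genes around the pathway were read from the same fit. Of these, 7 were called higher at LL36 (36.8%, below the 41.2% of all tested genes) and 4 lower (21.1%, against 11.2%). Under each of the scalings, 6 were called higher (31.6%, against 15.9%) and 3 lower (15.8%, against 11.1%). Among genes of granule initiation and structure, MRC (AT4G32190), which promotes granule initiation, had 11.7, 13.4 and 12.0 TPM at LL36, against 25.5, 25.7 and 25.3 TPM at LL24 (change -1.23 ± 0.07). LESV (AT3G55760), a starch-binding protein of the granule, had 15.2, 15.2 and 14.8 TPM at LL36, against 8.20, 7.86 and 6.62 TPM at LL24 (change 0.74 ± 0.09). BE1 (AT3G20440), a putative branching enzyme, had 12.2, 14.2 and 12.6 TPM at LL36, against 3.62, 5.40 and 4.28 TPM at LL24 (change 1.25 ± 0.14). None of these groups overlapped.

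On the cytosolic side, SPSC (AT4G10120), a sucrose phosphate synthase, had 39.4, 44.7 and 43.7 TPM at LL36, against 66.3, 75.1 and 87.2 TPM at LL24 (change -1.04 ± 0.11). PGM3 (AT1G23190), a cytosolic phosphoglucomutase, had 58.9, 57.6 and 56.3 TPM at LL36, against 77.9, 70.2 and 67.0 TPM at LL24 (change -0.52 ± 0.07). Both were lower in every LL36 library, while plastid PGM1 was higher. The adjusted p of these 5 genes lay between 7.0e-05 and 0.0095. Of the 4 transporters of the plastid envelope, PGLCT was called higher and TPT lower, and GPT1 and GPT2 were not called.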

How the data were processed

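Polyadenylated RNA of 18 samples was sequenced by the authors, and 1 table of TPM per gene was deposited. Only R1 reads were used, trimmed with Sickle and mapped with STAR 2.5.2a to the atRTD transcriptome (TAIR10), and Salmon 0.8.2 and tximport gave values per gene. Genes for rRNA, mitochondria and chloroplasts had been left out by the authors. TPM keep no depth, so no counting interval is given.

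Columns were matched to samples by name. Another 12 columns of per-sample values match no label and were not used, so the comparisons between lines were not made. The 3 LL36 and 3 LL24 wt libraries were compared on log2(TPM + 0.5), a scale that understates changes of low values, with limma 3.58.1 in R 4.3.3 (mean-variance trend, two-sided, checked on simulated data). Genes with a mean above 1 TPM at either time point were tested, and those whose p, adjusted by Benjamini-Hochberg over every tested gene, fell below 0.05 were called. Every adjusted p comes from limma, and means are given ± SD with n = 3.

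The members and the other gene lists were chosen with earlier results of these data known. Values per library are given for members called with a change of at least 0.5 relative to the shift, and for GWD1, AMY3, APS1, PGM1 and PGI1. The same rule named other pathway genes, and the clock genes, AtGRP7 and AtGRP8 were named as a check of the labels. Any other gene was named after its values were seen. Windows of 100 bases that transcripts of different genes share were taken from the TAIR10.1 annotation, where all 42 members matched a RefSeq entry. No coordinates or sequences are given. Alternatives were pseudocounts of 0.1 and 1, quantile normalization, median-of-ratios scaling, no filter on low genes, a filter at a mean of 5 TPM, no trend, a replicate block and leaving out each library. After the data were seen, leaving out the 100 most abundant genes and leaving out replicate 1 of both time points were added.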

Additional observations from a re-analysis of the deposited data

How the results depend on the processing

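With 3 libraries per time point and no depth in TPM, the members that varied most within their groups (BAM5, AMY1, APL4, APL3 and GWD2, with SDs of 0.41 to 0.67 on the log2 scale) were measured least firmly. Of the 42 members, 26 kept their direction and their side of the threshold in every alternative run, and so did 11 of the 19 other pathway genes. The scaling moved the split of all tested genes most, with 41.2% called higher and 11.2% lower as deposited, 16% and 18.2% after median-of-ratios scaling, and 18.7% and 15.7% after quantile normalization. Among the members the split was 19 higher and 11 lower as deposited, 16 and 15 after median-of-ratios scaling, and 16 and 14 after quantile normalization. Over all tested genes, 10107 were called as deposited, 6599 after median-of-ratios scaling and 6632 after quantile normalization.

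When each library was left out in turn, 17 to 20 members were called higher and 9 to 13 lower. In the same fits, 5979 to 7421 of all tested genes were called higher and 1762 to 2150 lower. Between 19271 and 19331 genes were tested in them. Synthesis genes numbered 6 to 7 higher and 4 to 7 lower, breakdown genes 11 to 13 higher and 5 to 6 lower, and other pathway genes 6 to 7 higher and 3 to 4 lower. The difference between the median log2 changes of breakdown and synthesis lay between 0.27 and 0.50.

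Direction turned only for members and pathway genes with small changes, none of them called as deposited. The cause was not tested. All values are log2 changes, LL36 minus LL24, not taken relative to the shift. Under median-of-ratios and under quantile scaling they were -0.17 and -0.082 for SS1, -0.022 and -0.014 for BAM6, -0.13 and -0.13 for BAM7, -0.055 and -0.054 for BAM8, -0.11 and -0.11 for GWD2, -0.064 and -0.051 for ESV1, -0.031 and -0.010 for GPT1, and -0.11 and -0.016 for PGM2, and under median-of-ratios scaling alone -0.040 for MFP1. Without the 100 most abundant genes they were -0.071 for SS1, -0.042 for BAM7, -0.019 for GWD2 and -0.0082 for PGM2. Without replicate 1 of both time points they were 0.19 for APL4, -0.035 for BAM7 and -0.22 for GWD2. With single libraries left out, they ranged over -0.012 to 0.070 for SS1, -0.26 to 0.36 for APL4, -0.049 to 0.14 for BAM7, -0.25 to 0.25 for GWD2 and -0.15 to 0.0018 for SS5. Of these, GWD2 without LL24 replicate 1 was called (-0.25, adjusted p = 0.041).

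Samples with the same replicate number deviated from their group means with correlations across genes of 0.13, 0.15 and 0.03. The threshold set for a pairing was 0.1, which the value of 0.03 did not reach and the others passed. The numbers were not taken as a pairing, although each LL36 sample correlated best with its own number. These correlations do not decide whether the samples were paired. With the replicate block, 9947 genes were called over all tested genes, 19 members were called higher and 12 lower, and APL1 (adjusted p = 0.0265) and MFP1 (adjusted p = 0.036) were added to the calls, while no other call of these genes changed.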

Other observations

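Among genes next to the pathway that the report only counts, TPT (AT5G46110), the triose phosphate exporter of the chloroplast envelope, was the most abundant, with 1024 ± 73.8 TPM at LL36 and 1211 ± 64.6 TPM at LL24. It was called lower at LL36 as deposited (adjusted p = 0.025) but not with quantile normalization (adjusted p = 0.18). PGLCT (AT5G16150), the plastid glucose transporter, had 98.7 ± 7.01 TPM at LL36 and 66.6 ± 4.38 TPM at LL24 and was called higher. Cytosolic fructose bisphosphatase cFBP (AT1G43670) and the sucrose phosphate synthase SPSA1 (AT5G20280) were also called higher, with 254 ± 11.8 and 62.9 ± 3.45 TPM at LL36 and 179 ± 13.3 and 43.5 ± 3.87 TPM at LL24. SPSA1 and SPSC, which encode the same enzyme activity, thus had opposite calls.

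GPT2 (AT1G61800), a glucose 6-phosphate transporter of the plastid known to respond to sugar, had 11.0, 4.70 and 7.39 TPM at LL36, against 29.5, 7.48 and 7.38 TPM at LL24. LL24 replicate 1 was the highest library for GPT2, as it was for APL3, APL4, BAM1, BAM5, APS1, SBE2.2 and LSF1 among the starch genes. For APS1, SBE2.2 and LSF1 the margin was narrow. GPT2 was not called.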
